A study of Mus musculus with 8 samples.

Results

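The genes described here encode the proteins of the cytosolic ribosome. They were taken by symbol, as every gene whose name is Rpl or Rps with a number and at most 1 further letter a, x, y or l, together with Rplp0, Rplp1, Rplp2 and Rpsa. This rule found 81 of the 22558 genes in the fragment table. Of these, 46 belong to the large subunit, 32 to the small subunit and 3 to the stalk of the large subunit. The set holds 77 standard ribosomal proteins and 4 paralogs (Rpl39l, Rps27l, Rpl3l and Rpl10l). Fau, which encodes a ribosomal protein fused to a ubiquitin-like protein, falls outside the rule by name. RNA-seq data came from mouse cells of 4 groups, with 2 libraries in a group and 8 in all. For 3 groups, cells were sorted for fibroblast activation protein (FAP), a membrane protease of stromal cells. They came from the pancreas, from skeletal muscle or from visceral adipose tissue. Those of the pancreas are labelled stellate cells, a mesenchymal type that stores vitamin A. The last group was FAP-negative mouse embryonic fibroblasts (MEFs), sorted, grown for 3 passages and sorted again. No genotype, treatment, sex, age or number of animals is given in the labels for any group, and the 2 libraries of a group are called biological replicates. A difference from MEFs is therefore also a difference between freshly sorted and cultured cells, and the design cannot tell these apart.

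The ribosome translates mRNA. Its small subunit reads the codons, its large subunit forms the peptide bonds, and the stalk proteins Rplp0, Rplp1 and Rplp2 recruit the elongation factors. A cell needs about equal amounts of nearly all ribosomal proteins, and their genes are among the most strongly expressed of any cell, with high demand in proliferating cells. Their mRNAs are short and start with a run of pyrimidines, the terminal oligopyrimidine (TOP) tract, through which mTORC1 and the RNA-binding protein Larp1 set their translation. Mammalian genomes carry many processed pseudogenes of these genes, so a read can match more than 1 place.

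Some short sequences were more frequent around the start of these genes than around that of other tested genes, though each was found in a minority of them. RefSeq start sites of the mouse build GRCm38.p6 were matched by symbol for 60 of the 81 genes, with 250 bases before and 50 bases after each start. The ETS-type core CCGGAAG, searched on both strands, was found in 24 of 60 windows (40.0%), against 16.1% of the windows of other tested genes and 9.12% of all promoters. CTTTCC, searched on the given strand, was found in 36.7%, against 14.2% and 14.0%. CTCTTTC, which can overlap CTTTCC, was found in 20%, against 3.69% and 3.91%. TATAAA was found in 8.33%, against 4.79% and 8.88%. These are matches of letters, not measured binding sites. The windows below run from 60 bases before to 15 bases after the start, in the direction of transcription, with the searched letters in capitals (CTTCCGG is the other strand of CCGGAAG). The first 4 lines show members with an ETS-type core close to the start.
Rpl41 (chr10:128549154-128549228, minus strand): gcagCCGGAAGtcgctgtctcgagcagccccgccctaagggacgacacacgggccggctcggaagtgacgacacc
Rpl11 (chr4:136053379-136053453, minus strand): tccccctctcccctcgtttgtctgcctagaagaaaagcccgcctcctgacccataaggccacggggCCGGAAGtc
Rpl38 (chr11:114668520-114668594, plus strand): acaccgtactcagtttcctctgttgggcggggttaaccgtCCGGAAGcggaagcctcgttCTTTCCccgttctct
Rpl19 (chr11:98026650-98026724, plus strand): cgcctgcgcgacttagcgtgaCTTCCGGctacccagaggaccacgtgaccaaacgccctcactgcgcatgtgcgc

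The next 7 lines show members on which the comparisons below turn, that is Rps2, Rplp0, Rpsa, Rpl4 and Rpl15, and the pair of Rpl39 and its paralog Rpl39l. Of these printed windows, those of Rpl4, Rpl15 and Rpl39l hold CTTTCC, and none holds the ETS-type core. The longer searched windows of Rps2, Rpsa, Rpl15, Rpl39 and Rpl39l do hold that core, outside the printed bases. CTTTCC was also found in the longer windows of Rplp0 and Rpsa.
Rps2 (chr17:24720003-24720077, plus strand): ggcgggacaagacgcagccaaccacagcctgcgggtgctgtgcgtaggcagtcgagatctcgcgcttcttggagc
Rplp0 (chr5:115559407-115559481, plus strand): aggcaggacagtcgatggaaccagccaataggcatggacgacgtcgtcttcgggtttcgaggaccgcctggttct
Rpsa (chr9:120127706-120127780, plus strand): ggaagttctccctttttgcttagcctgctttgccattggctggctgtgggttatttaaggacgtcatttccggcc
Rpl4 (chr9:64173327-64173401, plus strand): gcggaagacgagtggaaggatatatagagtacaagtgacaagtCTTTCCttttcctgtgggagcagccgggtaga
Rpl15 (chr14:18270972-18271046, minus strand): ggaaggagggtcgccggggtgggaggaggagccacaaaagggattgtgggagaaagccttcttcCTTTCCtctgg
Rpl39 (chrX:37085208-37085282, minus strand): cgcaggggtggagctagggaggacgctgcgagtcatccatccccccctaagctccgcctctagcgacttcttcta
Rpl39l (chr16:10170168-10170242, plus strand): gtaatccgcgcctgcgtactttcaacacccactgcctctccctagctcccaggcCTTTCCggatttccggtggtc

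The libraries held 15516319 to 27759399 bias-adjusted fragments. Whole reads were also recovered from the RPKM table, 9505664 to 16825634 per library. Levels are given as CPM, a gene's fragments scaled to a common library size and by edgeR's TMM factors, which assume that most genes do not differ. Fap stood at 28 to 107 CPM in the 6 FAP+ libraries and at 2.37 and 0.516 CPM in MEFs. All 12 stromal markers were detected in every FAP+ library. Adipose library 1 stands apart from the rest: its TMM factor was 0.516, against 0.889 to 1.31 elsewhere. Among markers of other cells, the summed level of 11 leukocyte genes was 56.4 and 19.3 CPM in the adipose libraries and 2.88 to 4.01 CPM in the others. That of 8 endothelial genes was 731 and 763 CPM in adipose and 34.1 to 208 CPM elsewhere. The 10 acinar and islet genes summed to 174 and 82.8 CPM in pancreas and at most 9.68 CPM elsewhere. The 7 mature adipocyte genes summed to 40.3 and 16.4 CPM in adipose and at most 1.72 CPM elsewhere. The 8 mesothelial and epithelial genes summed to 281 and 99.8 CPM in pancreas, 81.6 and 98.7 in adipose, 57.2 and 74.4 in MEFs, and 8.16 and 5.71 in muscle. The part of these cells in the results below was not tested.

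Ribosomal protein genes took 4.13% to 13.5% of all fragments. In MEFs the share was 7.42% and 9.81%. It was 6.45% and 5.17% in pancreas, 6.23% and 4.35% in muscle, and 13.5% and 4.13% in the adipose libraries. Both MEF libraries thus lay above the 4 muscle and pancreas libraries, and the adipose pair spanned the whole range of the study. As mean ± SD with n = 2, the share was 8.82% ± 6.63 in adipose, 5.29% ± 1.32 in muscle, 5.81% ± 0.901 in pancreas and 8.62% ± 1.68 in MEFs. In recovered reads the order of the 8 libraries was the same, with 6.62% and 8.61% in MEFs, 9.95% and 3.69% in adipose, 5.73% and 4.13% in muscle, and 5.90% and 4.84% in pancreas. The small subunit genes alone took 5.6% and 1.71% of fragments in adipose and 3.07% and 4.10% in MEFs, and the large subunit with the stalk 7.91% and 2.43%, and 4.35% and 5.71%. Shares also depend on what fills the rest of a library. Gelsolin (Gsn), which caps and severs actin filaments, took 10.9% to 17.8% of fragments in the FAP+ libraries and 0.291% and 0.308% in MEFs. With Gsn set aside, ribosomal protein genes held 7.45% and 9.84% in MEFs, 16.4% and 4.85% in adipose, 6.99% and 5.11% in muscle, and 7.42% and 5.89% in pancreas. In such bulk libraries, fewer cells of a type and less RNA per cell cannot be told apart.

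**Figure D1:**
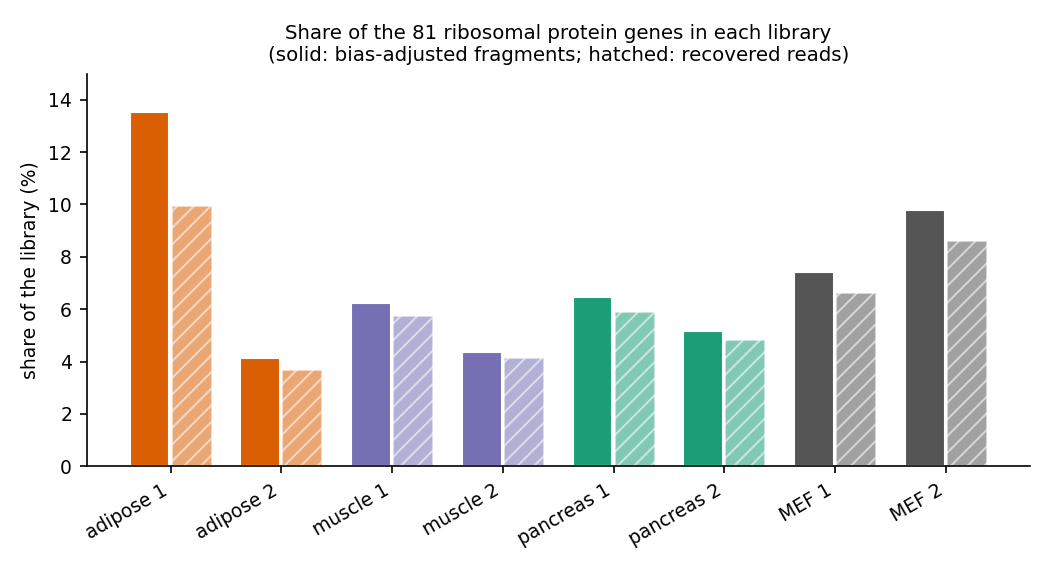
Share of each library (y axis, percent) held by the 81 ribosomal protein genes, in bias-adjusted fragments (solid) and recovered reads (hatched), 1 pair of bars per library. Adipose library 1 is the highest at 13.5% of fragments and adipose library 2 the lowest at 4.13%.

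The split of the adipose pair ran through nearly the whole set. In adipose library 1, 77 of the 80 tested members had a higher CPM than in library 2, and 68 were over 2-fold higher, with a median log2 ratio of 2.51. The other 14754 tested genes had a median of -0.05, with 46.9% higher in library 1. Rpl41, the smallest ribosomal protein, stood at 11033 and 1047 CPM. Rps29, a zinc-binding protein of the small subunit head, stood at 3715 and 405 CPM. Rps27a, which is made as a fusion with ubiquitin, stood at 8701 and 1079 CPM. The members lower in library 1 were Rpsa (276 and 537 CPM), Rps3 (121 and 311 CPM) and Rpl3l (0 and 0.16 CPM). In the other groups the median log2 ratio of library 1 to library 2 was 0.52 in muscle, 0.35 in pancreas and -0.45 in MEFs, where 78, 75 and 1 of 80 members were higher in library 1. So the members moved together between replicates in every group, most of all in adipose.

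The size of this split followed transcript length. The members' annotated lengths ran from 327 to 5134 bases with a median of 775, against 3157 for the other tested genes. Members under 500 bases had a median log2 ratio of 3.20 between the adipose libraries, those from 500 to under 700 bases 2.64, those from 700 to under 1000 bases 2.09 and those from 1000 to under 2000 bases 1.5. Other genes of the same length bands had medians of 1.23, 1.92, 1.12 and 0.28, so members lay above other genes of like length in each of these 4 bands. Across the 80 members Spearman's rho of length with the log2 ratio was -0.62, and across the other genes -0.31. These are descriptions across genes, which share their libraries. In recovered reads the members' median log2 ratio was 1.75, with 70 of 80 higher in library 1, and rho was -0.47 for members and -0.08 for other genes. A list of 29 short genes outside the ribosome, with a median length of 545 bases, showed the same split, with a summed 47112 CPM in adipose library 1, 8163 in library 2 and 5149 to 7015 in the other groups.

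**Figure D2:**
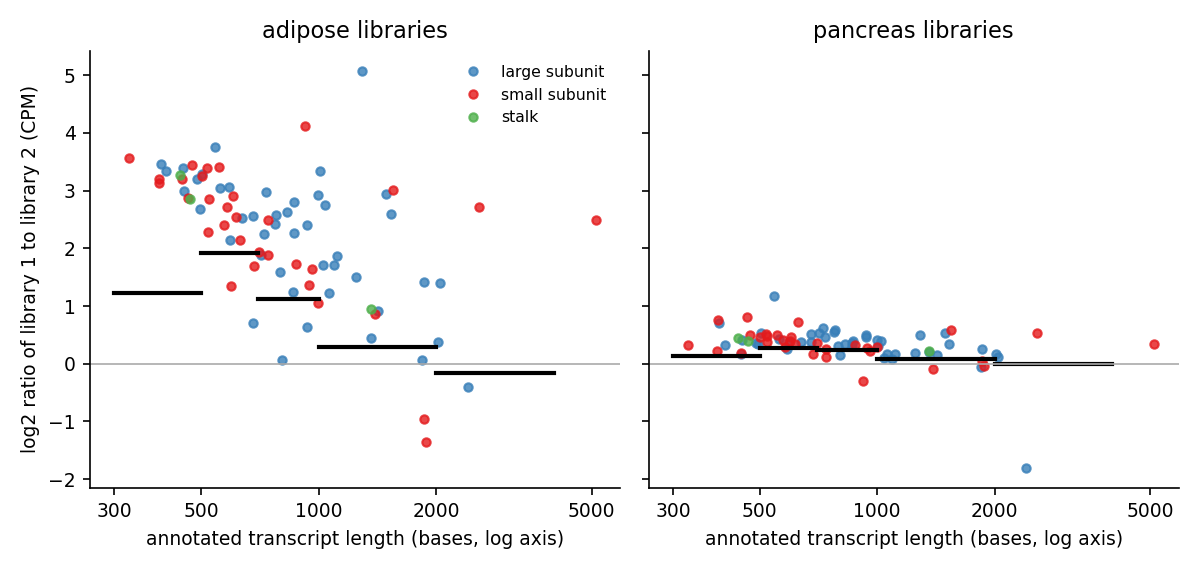
Log2 ratio of CPM in library 1 to library 2 (y axis) against annotated transcript length (x axis, bases, log axis) for the 80 tested ribosomal protein genes, in adipose (left) and pancreas (right). Black lines are medians of other genes in each length band. In adipose most members lie above 1, and the short ones highest, at a median of 3.20 under 500 bases; in pancreas their median is 0.35.

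Compared with MEFs, few members differed in any tissue. In adipose 2 of 80 tested members rose and 4 fell by edgeR's quasi-likelihood test (Benjamini-Hochberg adjusted p below 0.05), while 50.1% of all 14847 genes were called (26.9% higher and 23.2% lower). In muscle 1 rose and 3 fell, against 43.8% of all genes called (23.7% and 20%), and in pancreas 0 rose and 3 fell, against 42.5% (23.1% and 19.4%). At an unadjusted p below 0.05 by the same test there were 21, 6 and 8 members, against 57.9%, 52.4% and 51.8% of all genes. The members' median log2 fold change was 1.21 in adipose, -0.24 in muscle and -0.28 in pancreas, beside 0.05, 0.03 and 0.02 for all genes. By length, the adipose medians in this fit were 1.603 for members and 1.486 for other genes under 700 bases. They were 1.045 and 0.749 from 700 to under 1000 bases, and 0.508 and -0.023 at 1000 bases and over. Other genes under 1000 bases thus also had raised medians in adipose. In muscle and in pancreas 72 of 80 members lay within 2-fold of MEFs, against 48.9% and 49.8% of all genes, and in adipose 29 members did, against 43.8%. The standard error of a member's log2 fold change had a median of 0.69 to 0.71 in these comparisons, against 0.40 to 0.41 for all genes. The p-values measure the spread between these libraries, and 2 libraries a group limit their precision. All 3 comparisons share the 2 MEF libraries and are not independent of each other.

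The direction in adipose depended on library 1. The number of calls in muscle and pancreas rose when either adipose library was left out. All groups shared 1 estimate of the spread, and its part in this increase was not tested. Without adipose library 1, the median log2 fold change of the members against MEFs was -0.45 in adipose, -0.25 in muscle and -0.29 in pancreas. Then 0 rose and 11 fell in adipose, against 48.9% of all genes called, 1 rose and 12 fell in muscle (58.5%), and 2 rose and 11 fell in pancreas (57.5%). Without adipose library 2 instead, 63 rose and 4 fell in adipose, against 61.6% of all genes called, 1 rose and 12 fell in muscle (58.1%), and 2 rose and 11 fell in pancreas (57.1%). With recovered reads of all 8 libraries, 2 of 77 tested members rose and 9 fell in adipose (56.6% of all genes called), 2 and 7 in muscle (55.8%), and 1 and 9 in pancreas (53.6%). With an offset for annotated length fitted in each library, 1 rose and 10 fell in adipose, and the median was -0.03, beside -0.03 for all genes. By limma on log2(FPKM + 1), which is not scaled by TMM, 0 rose and 17 fell in adipose with a median of -0.37, beside -0.65 for all genes. With RLE in place of TMM scaling, 5 rose and 4 fell in adipose, and DESeq2 on all 8 libraries called 30 higher and 4 lower there. The share of all genes called is not given for the length offset, limma, RLE or DESeq2. Those counts therefore cannot be read as an excess or a lack among the members. Apart from any fit, both adipose libraries were below both MEF libraries for 8 of 80 members (36.9% of all genes) and above for 0 (36.3%). Both muscle libraries were below for 19 (40.2%) and above for 6 (41.9%), and both pancreas libraries were below for 28 (39.4%) and above for 4 (40.9%).

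**Figure D3:**
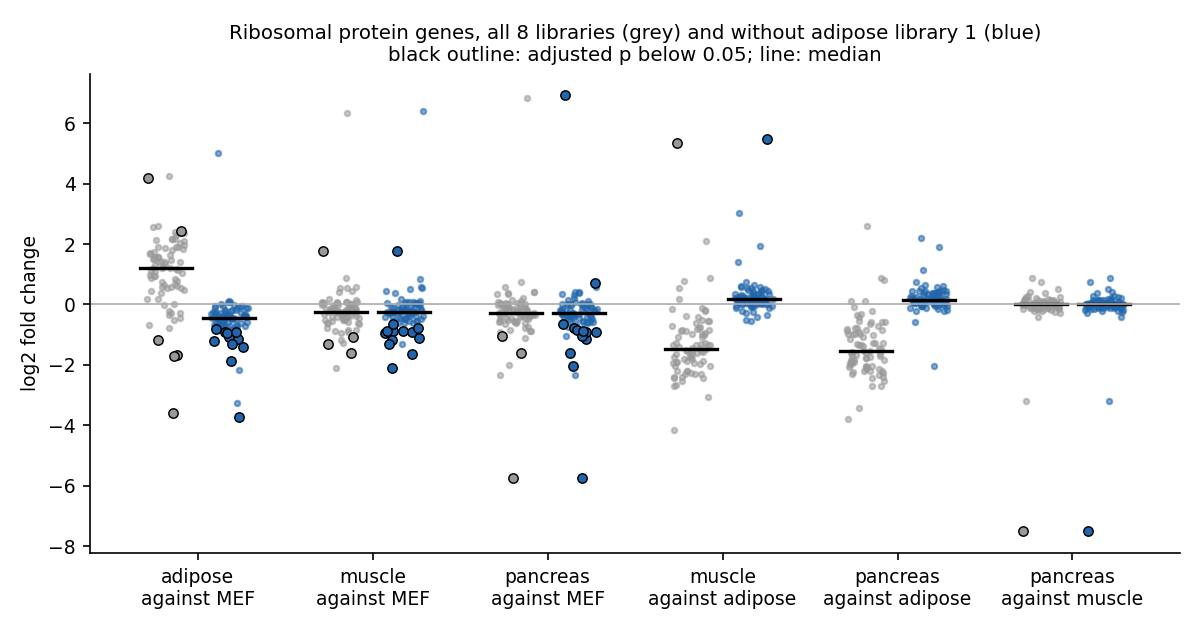
Log2 fold changes (y axis) of the tested ribosomal protein genes in 6 comparisons (x axis), fitted on all 8 libraries (grey) and without adipose library 1 (blue). Each point is 1 gene, outlined in black at an adjusted p below 0.05, and lines are medians. The median in adipose against MEF moves from 1.21 to -0.45, while that in pancreas against muscle stays at 0.01.

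Among the stalk proteins, Rplp0, which anchors the other two to the ribosome, was lower in FAP+ cells than in MEFs in most libraries. Its level was 3207 and 3808 CPM in MEFs, 3205 and 1657 in adipose, 2237 and 1449 in muscle, and 1735 and 1494 in pancreas. All 6 FAP+ libraries thus lay below both MEF libraries, adipose library 1 by a narrow margin. Its log2 fold change was -0.53 ± 0.42 (SE) in adipose (adjusted p = 0.318), -0.93 ± 0.42 in muscle (0.110) and -1.12 ± 0.42 in pancreas (0.0657), so edgeR made no call. In recovered reads Rplp0 fell by 1.13, 0.82 and 1.09 on the log2 scale, with edgeR adjusted p of 0.0108, 0.0398 and 0.0134. The acidic stalk proteins Rplp1 and Rplp2 went with the other short genes. Rplp1 had 1786 and 2513 CPM in MEFs, 10539 and 1451 in adipose, 1763 and 1191 in muscle, and 1907 and 1443 in pancreas, and it was the most abundant member per length, at a mean RPKM over the 4 groups of 3051. Rplp2 had 5704 and 592 CPM in adipose and 626 to 950 CPM in the other 6 libraries, where the groups overlapped.

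Rpl3 and Rpl4, long proteins at the core of the large subunit, were lower in muscle than in MEFs. Rpl3, which reaches toward the peptidyl transferase centre, had 1407 and 1443 CPM in MEFs, 1025 and 754 in adipose, 651 and 504 in muscle, and 822 and 710 in pancreas, with no overlap between FAP+ and MEF libraries. It fell in muscle by 1.30 ± 0.32 on the log2 scale (edgeR adjusted p = 0.0131), a call lost without either muscle library or without MEF library 2 (0.0544 to 0.112). Its log2 fold change was -0.68 in adipose (0.105) and -0.90 in pancreas (0.0524), and recovered reads gave calls there too, at -1.24 (0.00448) and -0.96 (0.0151). Rpl4, which lines the exit tunnel for the new peptide, had 1491 and 1373 CPM in MEFs, 1539 and 816 in adipose, 705 and 646 in muscle, and 829 and 746 in pancreas. Adipose library 1 lay above both MEF libraries and the other 5 FAP+ libraries below. In adipose and pancreas Rpl4 was called lower in recovered reads and not in fragments of all 8 libraries. In fragments it fell in muscle by 1.08 ± 0.37 (edgeR adjusted p = 0.0447). That call was lost in 9 of 21 alternatives, namely RLE scaling (0.0534), upper quartile scaling (0.0507), a filter of 5 CPM (0.0633), and without any 1 of the muscle, pancreas or MEF libraries (0.0856 to 0.2). Rpl15, a protein near the core of the large subunit, had 434 and 493 CPM in MEFs, 211 and 200 in adipose, 354 and 243 in muscle, and 220 and 228 in pancreas. It fell by 1.17 ± 0.29 in adipose (edgeR adjusted p = 0.0123) and 1.05 ± 0.29 in pancreas (0.0217), and its value in muscle was -0.63 (0.109). In recovered reads the adipose value of Rpl15 was -0.69 (0.0933). Its call in adipose was also lost without MEF library 2 (0.062), and that in pancreas without any 1 of the pancreas or MEF libraries (0.0651 to 0.136).

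None of the large subunit members named next was called against MEFs. Rpl5 and Rpl11, which bind the 5S RNA and restrain the p53 regulator Mdm2, had 614 and 475 CPM, and 2122 and 481 CPM, in adipose, against 694 and 788, and 538 and 716, in MEFs. Rpl10, which matures the large subunit as a late step, had 1314 and 1639 CPM in MEFs, 3937 and 1303 in adipose, 1515 and 1118 in muscle, and 1484 and 1205 in pancreas. Rpl10a had 3888 and 625 CPM in adipose and 539 to 767 in muscle and pancreas, against 859 and 1130 in MEFs. Its muscle and pancreas libraries all lay below the MEF libraries, without a call. Rpl13a had 2529 and 776 CPM in adipose and 688 to 997 in muscle and pancreas, against 921 and 1197 in MEFs. Rpl22, at 118 to 312 CPM in the 8 libraries, and Rpl38, at 1640 to 2477 CPM outside adipose library 1 and 16634 CPM in it, were also not called in any comparison.

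In the small subunit, Rps2 was lower in muscle and pancreas than in MEFs. Rps2, which sits at the channel where mRNA enters, had 3971 and 4692 CPM in MEFs, 3400 and 1643 in adipose, 1708 and 1129 in muscle, and 1578 and 1298 in pancreas. It fell by 1.61 ± 0.44 on the log2 scale in muscle (edgeR adjusted p = 0.0212) and by 1.59 ± 0.44 in pancreas (0.0227). In adipose its value was -0.78 ± 0.44 (0.167), and -1.64 ± 0.29 in recovered reads (0.00175). All FAP+ libraries were below both MEF libraries, while the calls of Rps2 were lost without any 1 library of the 2 groups compared (0.057 to 0.148). Rps3, a neighbour at the same channel, had 654 and 717 CPM in MEFs, 121 and 311 in adipose, 431 and 315 in muscle, and 392 and 403 in pancreas. It fell in adipose by 1.66 ± 0.45 (edgeR adjusted p = 0.0177), a call lost in 3 alternatives, among them without either MEF library. In recovered reads Rps3 had 1411 and 1628 CPM in MEFs and 650 and 807 in adipose, a smaller gap than in fragments. Adipose library 1 held 1591 fragments of Rps3 but 7091 reads. Rpsa, also known as the laminin receptor precursor, had 1157 and 1512 CPM in MEFs, 276 and 537 in adipose, 831 and 649 in muscle, and 732 and 708 in pancreas. It fell in adipose by 1.72 ± 0.40 (edgeR adjusted p = 0.0094; 0.0525 without MEF library 2), and its values in muscle and pancreas were -0.85 (0.111) and -0.89 (0.0998). Recovered reads gave calls for Rpsa in all 3 tissues, at -1.44, -0.83 and -0.80 (edgeR adjusted p of 0.00368, 0.0398 and 0.0469).

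Rps15 and Rps29, both at the head of the small subunit, lay the other way. Rps15 had 582 and 739 CPM in MEFs, 1132 and 853 in muscle, and 1278 and 913 in pancreas, so both tissues lay above MEFs without a call (in pancreas log2 0.73 ± 0.65, edgeR adjusted p = 0.394). Without adipose library 1 the call in pancreas was made, at 0.72 (edgeR adjusted p = 0.0431). Rps29 had 301 and 460 CPM in MEFs, 3715 and 405 in adipose, 644 and 474 in muscle, and 616 and 530 in pancreas. Its rise in adipose, by log2 2.44 ± 0.86 (edgeR adjusted p = 0.0469), rested on library 1, since adipose library 2 lay between the MEF libraries, and without library 1 it was 0.09 (0.844). Rps6, the substrate of S6 kinase, had 499 and 580 CPM in MEFs, 597 and 328 in adipose, 489 and 347 in muscle, and 363 and 385 in pancreas. Rps4x had 899 to 1637 CPM in muscle and pancreas, against 1079 and 1314 in MEFs. Rps14 and Rps19, both known from inherited or acquired anaemias with a shortage of 1 ribosomal protein, had 734 to 1252 and 369 to 635 CPM in muscle and pancreas, against 800 and 1095, and 612 and 808, in MEFs. None of Rps6, Rps4x, Rps14 and Rps19 was called in any comparison.

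**Figure D4:**
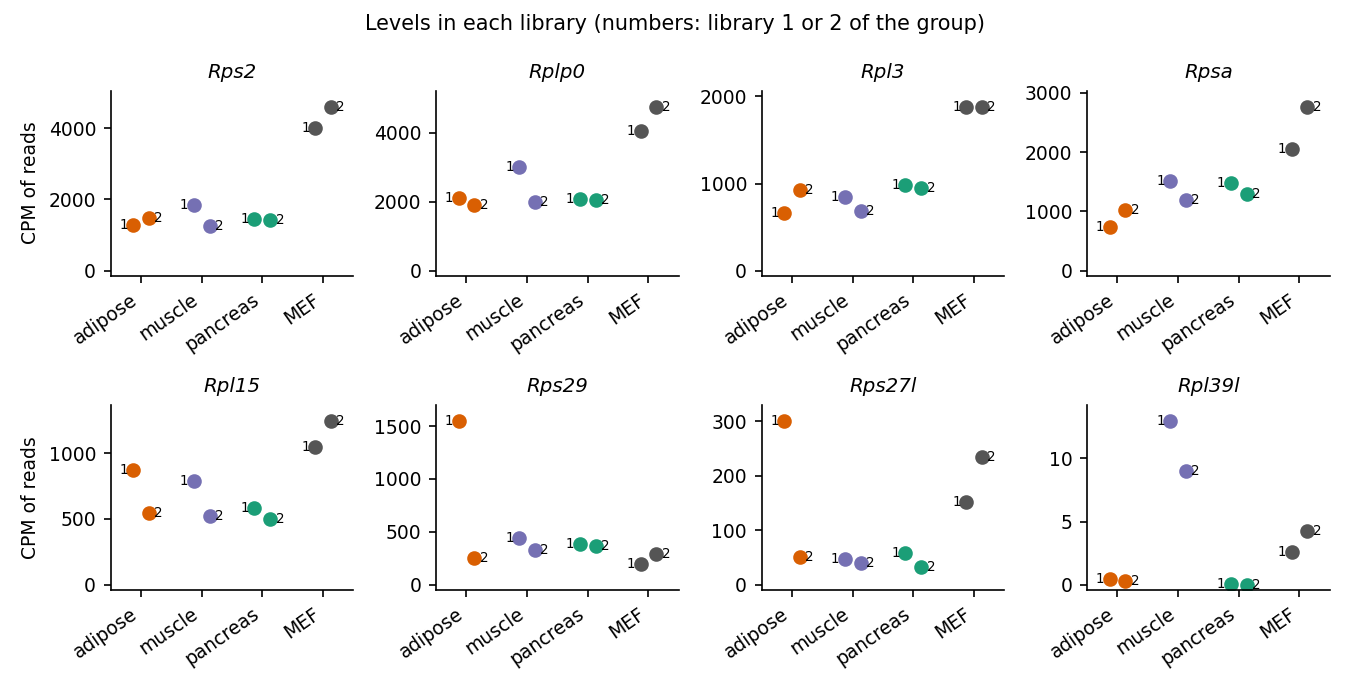
Level of 8 members in each library (y axis, CPM of recovered reads, scaled by TMM), by group (x axis), with the number of the library beside each point. Rps2, Rplp0, Rpl3, Rpsa and Rpl15 are lower in all 6 FAP+ libraries than in both MEF libraries; Rps29 and Rps27l are high in adipose library 1; Rpl39l is highest in muscle and at or near 0 in pancreas.

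By length, 0 of 34 members under 700 bases fell against MEFs in each tissue. Of all genes 23.2%, 20% and 19.4% fell in adipose, muscle and pancreas, and the shares of other genes called in each length band were not counted. Of 22 members from 700 to under 1000 bases 1, 1 and 2 fell in adipose, muscle and pancreas, and of 24 members of 1000 bases and over 3, 2 and 1 fell. Without adipose library 1 these counts were 2, 3 and 2 of the 34, 2, 1 and 2 of the 22, and 7, 8 and 7 of the 24, and whether calls differ by length was not tested. In that fit members under 700 bases had medians of -0.38, -0.19 and -0.23 in adipose, muscle and pancreas, and those of 1000 bases and over -0.61, -0.26 and -0.27. Other genes had medians of 0, 0.08 and 0 under 700 bases, and -0.02, 0.04 and 0.04 at 1000 bases and over. Spearman's rho between length and fold change over the 80 members was -0.49 in adipose, -0.17 in muscle and -0.22 in pancreas, given as a description across genes that share libraries.

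Pancreas against muscle, the comparison without adipose, had a median log2 fold change of 0.01, with quartiles of -0.09 and 0.09 and 78 of 80 within 2-fold (83.4% of all genes). In it 0 rose and 1 fell, against 3.67% of all genes called (1.54% higher and 2.14% lower). Muscle against adipose had a median of -1.46 and 1 rise with 0 falls, against 6.12% of all genes called (2.34% higher and 3.78% lower). DESeq2 called 1 higher and 23 lower in muscle against adipose. Pancreas against adipose had a median of -1.53 and 0 calls by edgeR in either direction, against 9.05% (3.32% higher and 5.73% lower). In that comparison 27 of 80 members (33.8%) had an unadjusted edgeR p below 0.05, against 26.3% of all genes. DESeq2 called 26 members there, all lower in pancreas. The share of all genes that DESeq2 called is not given for this comparison or for muscle against adipose. Without adipose library 1 the medians were 0.18 for muscle and 0.16 for pancreas against adipose, and edgeR called 1 and 0 members (6.66% and 11.2% of all genes), and 1 in pancreas against muscle (7.85%). In recovered reads 1, 0 and 1 of 77 members were called in muscle against adipose, pancreas against adipose and pancreas against muscle, beside 13.5%, 22.6% and 6.07% of all genes. The member called in muscle against adipose and in pancreas against muscle was Rpl39l. The relative levels of the members were much alike across libraries. Spearman's rho of their RPKM values between 2 libraries was 0.902 to 0.990 over the 21 pairs without adipose library 1, and 0.567 to 0.735 over the 7 pairs with it (81 genes each, as a description). After Rplp1, the highest mean RPKM over groups were those of Rps12 (2567), Rps2 (1929), Rpl41 (1882) and Rplp0 (1720). Rps12 was added to the named genes after its values were seen.

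Rpl39l was higher in muscle than in the other groups and at or near 0 in pancreas. It is a paralog of Rpl39, a small protein of the exit tunnel, and is best known from the testis. It had 104 and 111 fragments in muscle (6.63 and 4.76 CPM), 44 and 65.7 in MEFs (1.32 and 2.00 CPM), 1.74 and 2.97 in adipose, and 0.723 and 0 in pancreas. The recovered reads were 118 and 121, 48 and 78, 5 and 4, and 1 and 0. The 4 groups did not overlap in either unit. By edgeR, Rpl39l rose in muscle against MEFs by log2 1.77 ± 0.49 (adjusted p = 0.0207) and fell in adipose by 3.58 ± 0.63 (0.003). With 1 fragment in pancreas, the fold has a wide interval, which covers counting error only and leaves out the spread between libraries and the amplification of the RNA. Muscle held 212 times the pancreas level (95% counting interval 37.6 to 8409) and MEFs 63.8 times (11.2 to 2542), with edgeR adjusted p of 0.00389 and 0.00114. Muscle also exceeded adipose, by log2 5.35 ± 0.64 (edgeR adjusted p = 0.00694), with a ratio of pooled fragments of 41.7 (17.6 to 130). Pancreas against adipose was not called (-2.14 ± 1.05, edgeR adjusted p = 0.254). Without adipose library 1 these 5 calls were made again. The call of muscle against adipose was lost without muscle library 1. The rise in muscle against MEFs lost its call in 5 alternatives, among them when either muscle or either MEF library was left out. Rpl39 itself had 300 and 386 CPM in MEFs, 382 and 251 in muscle, and 393 and 240 in pancreas, and these groups overlapped. It reached 3738 CPM in adipose library 1 and 340 in library 2. Markers of muscle fibres and satellite cells, 9 genes in all, summed to 51.0 and 66.0 CPM in muscle, 70.9 and 18.5 in adipose, 45.8 and 42.9 in pancreas, and 25.5 and 22.1 in MEFs, and their part in the Rpl39l result was not tested.

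Rps27l, a paralog of Rps27 that p53 can induce, was lower in muscle and pancreas than in MEFs. It had 137 and 215 CPM in MEFs, 44.9 and 37.5 in muscle, and 56.0 and 31.6 in pancreas, without overlap. In adipose it had 354 and 48.3 CPM, 1 library above and 1 below both MEF libraries. The log2 fold changes were -2.10 ± 0.80 in muscle and -2.01 ± 0.80 in pancreas, with edgeR adjusted p of 0.0661 and 0.0758. They were called in recovered reads, at -2.13 (0.0287) and -2.07 (0.0328), and without adipose library 1, at -2.11 (0.00121) and -2.02 (0.00153). Rpl3l, the paralog of Rpl3 known from heart and skeletal muscle, was listed at 0 in both MEF libraries and had 1 and 2 reads in adipose, 1 and 12 in pancreas, and 2 and 9 in muscle. Of its 24.5 fragments in pancreas, all were in library 2. Rpl10l, the testis paralog of Rpl10, had 0 to 2 reads per library and did not pass the filter on low counts.

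For several members the fragment and read tables disagreed by far more than a replicate spread, and their levels are uncertain. Over the 76 members with at least 100 reads in all, the median was 1.88 fragments per read, against 1.12 for 13029 other genes, and 14 members exceeded 3 fragments per read, against 7.41% of other genes. Rpl26, which can bind the p53 mRNA, had 1 read in all 8 libraries together but 33.8 to 628 fragments per library. Rps27 had 12 to 55 reads per library and 126 to 2344 fragments. Rpl38 had 15.4 fragments per read. Rpl34, Rps23 and Rpl30, named here for this gap after their values were seen, had 17 to 141, 0 to 3 and 8 to 40 reads per library, and 6683 to 60406, 140 to 1691 and 375 to 1378 fragments. All of these are standard, constitutive ribosomal proteins. Rps27 pointed in opposite directions in pancreas against MEFs, at -2.32 ± 1.63 in fragments (edgeR adjusted p = 0.281) and 1.25 ± 0.43 in reads (0.0388).

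**Figure D5:**
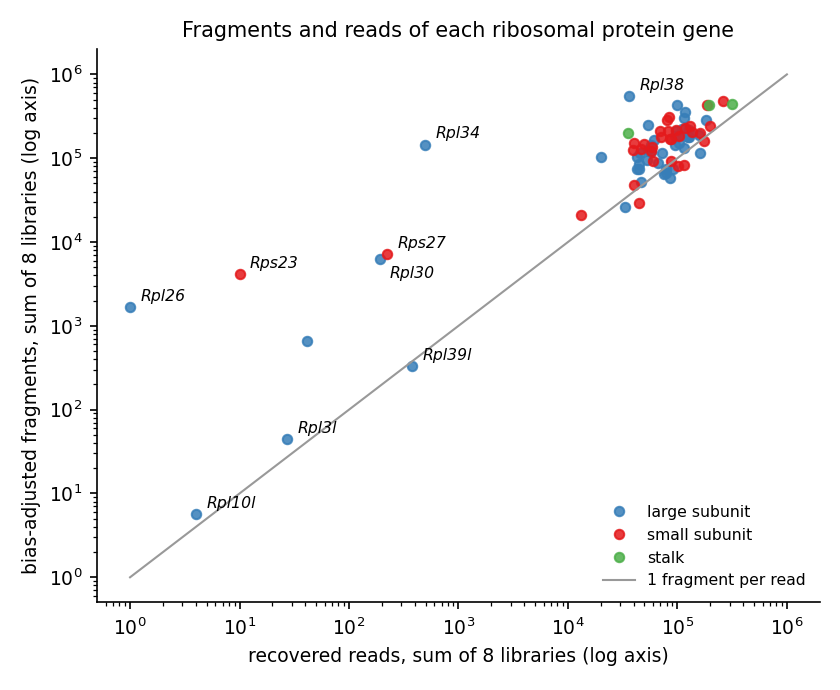
Bias-adjusted fragments (y axis, log axis) against recovered reads (x axis, log axis) of each of the 81 ribosomal protein genes, summed over 8 libraries. Most members lie near or above the line of 1 fragment per read, with a median of 1.88, while Rpl26, Rps23, Rpl34, Rpl30 and Rps27 lie far above it.

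Counts for other genes of translation are read against all genes, of which 23.2% fell in adipose, 20% in muscle and 19.4% in pancreas. Of 46 tested ribosome biogenesis factors, 2 rose and 27 fell in adipose, 1 and 35 in muscle, and 0 and 34 in pancreas, with medians of -0.91, -1.43 and -1.14. Among them Npm1, a chaperone of ribosome assembly in the nucleolus, had 686 and 712 CPM in MEFs, 165 and 175 in adipose, 202 and 135 in muscle, and 142 and 137 in pancreas. It fell by 2.04, 2.05 and 2.32 on the log2 scale (edgeR adjusted p of 0.00125, 0.00135 and 0.000842). Of 35 translation initiation factors 17, 23 and 22 fell in adipose, muscle and pancreas and 2, 1 and 1 rose. Eif4a1, the helicase of cap-dependent initiation, fell by 1.30, 2.05 and 1.94 (edgeR adjusted p of 0.0159, 0.00283 and 0.00375). Of 12 elongation factors, 4, 6 and 5 fell and 1, 0 and 1 rose. Eef1a1, which delivers aminoacyl-tRNA, had 8037 and 7092 CPM in MEFs, 6690 and 4457 in adipose, 3766 and 3262 in muscle, and 3806 and 3249 in pancreas. It fell by 1.11 in muscle and 1.1 in pancreas (edgeR adjusted p of 0.0397 and 0.0415).

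Of 19 other mRNAs that carry a TOP tract, a list that shares genes with the preceding ones, 7, 7 and 8 fell and 1, 0 and 0 rose, with medians of -0.50, -0.80 and -0.98. The riser was Tpt1 in adipose, at log2 1.66 ± 0.57 (edgeR adjusted p = 0.0421). Of 76 mitochondrial ribosomal proteins, which are encoded separately and serve the ribosome of that organelle, 23, 23 and 19 fell and 3, 0 and 0 rose. As given above, 23.2%, 20% and 19.4% of all genes fell, and the lists in this paragraph are to be read beside these shares. Of 8 ribosomal protein genes and relatives outside the naming rule, 3, 3 and 2 fell and 0 rose. Of 15 genes of RNA polymerase I transcription, which makes the large ribosomal RNAs, 4, 5 and 4 fell. The 1 that rose in each tissue was Myc, a factor that drives ribosome production, at 168 and 161 CPM in MEFs, 2501 and 1661 in adipose, 893 and 1020 in muscle, and 477 and 542 in pancreas (edgeR adjusted p of 0.000204, 0.0009 and 0.00587). Of 17 genes of mTORC1 and TOP mRNA control, 2, 1 and 3 rose and 4, 3 and 2 fell. Deptor, an inhibitor of mTOR, rose by log2 4.15, 3.82 and 2.72 (edgeR adjusted p of 0.00119, 0.0018 and 0.00683), and Eif4ebp1, the repressor of cap binding that mTORC1 phosphorylates, fell by 1.44 in muscle and 1.53 in pancreas (0.0372 and 0.0308). Of the 29 short genes outside the ribosome, 10 rose in adipose and 0 fell, and without adipose library 1 there were 3 rises and 3 falls. Without that library 31, 41 and 40 of the 46 biogenesis factors fell, and 43, 43 and 38 of the 76 mitochondrial ribosomal proteins.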

How the data were processed

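RNA-seq libraries from 4 groups of 2 mouse samples were used as deposited. RNA was amplified with the MessageAmp kit before library preparation, per the labels' protocols. Per the submitters' processing notes, Bowtie2, TopHat2, HTSeq, edgeR and the build mm9 were used; the program of the bias adjustment, and how reads matching several places were treated, are not given in the sources used here. The authors deposited a table of bias-adjusted fragments, which are estimated counts, a table of bias-adjusted FPKM and a table of RPKM. A further 6 columns of per-sample values were not used.

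The fragments were rounded and tested with edgeR 4.0.16 in R 4.3.3 (quasi-likelihood, TMM, filterByExpr, all 8 libraries in 1 fit with 4 residual degrees of freedom, Benjamini-Hochberg over 14847 genes, called at an adjusted p below 0.05). The design had assumed raw counts, and the table held estimated ones. Whole reads were recovered from the RPKM values for 20981 of 22609 genes (92.8%), with values whole within 0.01, and 1628 genes gave none; these reads were tested as an alternative. Shares are percent of the library total. Other alternatives were DESeq2 1.42.0, limma 3.58.1 on log2 FPKM and RPKM, other scalings and filters, the replicate block, and each library left out; length offsets, and reads without adipose library 1, were added after seeing the data. The fitting script was tested on simulated data.

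Named members are representatives of each role, all paralogs, members below 10 CPM everywhere, and the 4 highest and 4 lowest called members of a comparison; of other lists, the 2 called genes of highest mean CPM qualified. Results for some genes are not reported here. The members and lists were chosen with earlier results of these data known.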

Additional observations from a re-analysis of the deposited data

Results flagged for a closer look

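Rpl39l differed between tissues in its change against MEFs, by the test of the difference itself. Muscle against adipose differed by log2 5.35 ± 0.64 (edgeR adjusted p = 0.00694), and both muscle libraries lay above both adipose libraries. Pancreas against muscle differed by log2 -7.50 ± 0.78 (edgeR adjusted p = 0.00389), on 0.723 and 0 fragments in pancreas, so that this fitted value depends on the prior count. Groups of 2 libraries are too small to test for single outlying samples.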

How the results depend on the processing

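For most alternatives below, the share of all genes called is not given, so their counts show how calls moved and not an excess among the members. Counts of ribosomal protein genes called in adipose, muscle and pancreas against MEFs were 6, 4 and 3, beside 50.1%, 43.8% and 42.5% of all genes. They were 16, 13 and 10 by limma on log2(FPKM + 0.1), 17, 14 and 10 on log2(FPKM + 1), 17, 15 and 10 with a filter of 1 FPKM, 13, 14 and 14 on log2(RPKM + 1), 11, 12 and 7 with a length offset, 1, 13 and 11 with only the groups compared, 11, 9 and 10 in recovered reads, 20, 16 and 15 in reads with a length offset, and 14, 19 and 20 in reads without adipose library 1. DESeq2 called 34 (30 higher) and 8 in adipose and pancreas, 24 in muscle against adipose (23 lower) and 26 in pancreas against adipose (all lower). A filter of 5 CPM left 2 calls in muscle against MEFs, and 0 in muscle against adipose and in pancreas against muscle, since it removed Rpl39l. Pancreas against muscle had 3 calls with only its groups, and pancreas against adipose 1 in reads with a length offset. Leaving out 1 library gave 1 to 67 calls in adipose, 0 to 13 in muscle and 1 to 13 in pancreas against MEFs, 0 to 70 in muscle against adipose, 0 to 69 in pancreas against adipose and 1 to 1 in pancreas against muscle. The counts of 67, 70 and 69 were those without adipose library 2; without either muscle library, or without MEF library 2, muscle against MEFs had 0 calls.

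Shares in adipose, muscle, pancreas and MEFs were 23.2%, 17.4%, 19.2% and 23.3% of FPKM and 18.0%, 14.5%, 15.8% and 19.4% of RPKM. With 1 library left out they were 4.13% to 13.5%, 4.35% to 6.23%, 5.17% to 6.45% and 7.42% to 9.81% of fragments. Reversed values were those of Rpl34 in adipose against MEFs (-1.72 by limma on RPKM, -1.38 in reads) and of Rps27 in pancreas against MEFs (1.25 in reads). The cause was not tested. Over the alternatives for single members with at least 100 reads in all that edgeR called in fragments or in recovered reads, 523 values kept direction and side of the threshold, 109 gained a call, 53 lost one and 3 reversed. With the replicate block, 4, 5 and 4 members were called against MEFs in adipose, muscle and pancreas; the labels do not say whether a number marks a shared batch, so the samples were not treated as paired. The correlation of same-numbered deviations was -0.16, -0.07 and 0.00 there, and 0.11, 0.35 and -0.01 in muscle against adipose, pancreas against adipose and pancreas against muscle. Low read numbers limit Rpl26, Rps23, Rpl3l and Rpl10l, each under 100 reads in all.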
